A study of Rattus norvegicus with 10 samples.

Results

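Neonatal rat ventricular cardiomyocytes kept in culture with electric pulses were compared with cardiomyocytes kept without them. The arrays were chosen by their titles, as those labelled pulsed without blebbistatin and those labelled nonpulsed. They make up 7 of the 10 arrays of the study, 4 pulsed and 3 nonpulsed. Each title ends in a date, and arrays that share one are called a culture series here, numbered 1 to 4. The study text speaks of separate rounds of cell isolation and culture, but the labels do not say that the date marks such a round. Series 1, 2 and 3 hold both treatments and give 3 pairs (6 arrays), while the pulsed array of series 4 has no nonpulsed partner. The study text speaks of 3 arrays per treatment, and the labels give 4 pulsed arrays.

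All cultures came from Lewis rats 0 to 3 days after birth, and no genetic change is named in the labels. Pulsed cells received 2 V/cm at 1 Hz for 3 days after a recovery phase. Nonpulsed cells were kept for the same time without pulses. The remaining 3 arrays of the study, pulsed cells with 10 µmol/L blebbistatin (an inhibitor of myosin that stops contraction), do not enter the paired values. Each array holds RNA pooled in equal parts from duplicate experiments, so the spread reported here is that between culture series and the spread between dishes is not seen.

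Ventricular myocytes taken from newborn rats beat irregularly in a dish and lose part of their differentiated state. Field pulses impose a regular rhythm of depolarisation, calcium release and contraction on them. In the heart, potassium channels repolarise the cell after each beat, calcium handling proteins couple depolarisation to contraction, and fatty acid oxidation supplies most of the energy. The transcriptional regulators of the PGC-1, ERR and PPAR families control the genes of that oxidation.

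Expression was measured on Affymetrix rat arrays as log2 signal per probe set, and a difference of 1 is a 2-fold change. A gene is represented by its brightest probe set, and 18393 genes and unnamed probe sets were tested, 11846 of them with 1 gene symbol. The paired difference is the log2 signal of the pulsed array minus that of the nonpulsed array of the same series. The median signal of all probe sets lay between 6.57 and 6.78 on the 10 arrays. The probes at the 3′ and 5′ ends of the beta-actin control differed by 0.45 (nonpulsed) and 0.60 (pulsed) in series 1, by 0.68 on both arrays of series 2 and by 0.63 and 0.67 in series 3. For GAPDH the values, nonpulsed before pulsed, were 0.17 and 0.11, 0.06 and 0.06, and 0.17 and 0.10 in series 1, 2 and 3. For hexokinase they were 0.85 and 0.96, 0.90 and 0.80, and 0.91 and 1.04. The beta-actin value was thus higher on the pulsed array in each series, though by very little in series 2 (0.680 and 0.682). GAPDH and hexokinase had no common direction between treatments. The part of these differences in the results was not tested.

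No gene passed the test. In limma's paired fit with Benjamini-Hochberg adjustment, 0 of 18393 genes (0%) had an adjusted p under 0.05, and 0.566 was the smallest value reached. At an unadjusted p under 0.05, 1340 genes (7.29%) were higher and 263 (1.43%) were lower in pulsed cultures. Signals were above the nonpulsed partner in all 3 series for 4552 genes (24.7%) and below it in all 3 for 1779 (9.67%), and the mean difference was above 0 for 62.4%. The preponderance of higher genes depended on the scaling of the arrays. Higher genes were 83.6% of those at an unadjusted p under 0.05 in the values as deposited, 60.8% after quantile normalization and 56.3% after centring each array on its median. Of the genes with 1 direction in all 3 series, they were 71.9%, 49.9% and 42.2% in the same order. Without series 2 the genes at an unadjusted p under 0.05 numbered 740 higher and 140 lower, and without series 1 they numbered 853 and 352.

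The size of the difference varied greatly between the series. In series 1 the paired differences had an SD of 0.452 over all genes, and 669 genes (3.64%) were more than 2-fold higher and 217 (1.18%) more than 2-fold lower in the pulsed array. In series 2 the SD was 0.275, with 71 (0.386%) higher and 43 (0.234%) lower. In series 3 it was 0.218, with 37 (0.201%) higher and 8 (0.0435%) lower. The median difference of all genes was 0.11, 0.03 and 0.03, and 63.8%, 56.4% and 57.1% of genes were above 0. The 2 arrays of a pair differed by more than 2-fold in 886, 114 and 45 genes in series 1, 2 and 3. For comparison, nonpulsed arrays of different series differed that much in 303 to 1015 genes and pulsed arrays in 258 to 810. The difference between treatments in series 2 and 3 was therefore smaller than the difference between any of the culture series under 1 treatment.

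**Figure D1:**
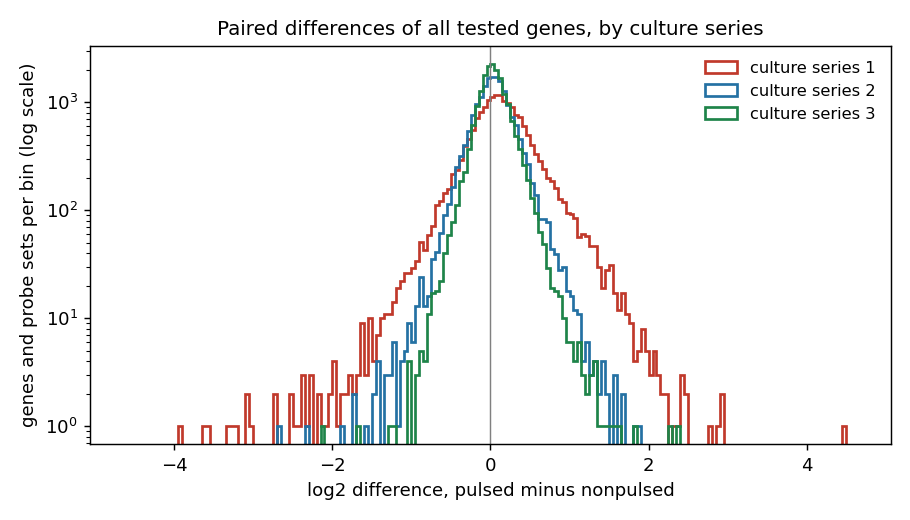
Number of genes and probe sets (vertical axis, log scale) by paired log2 difference, pulsed minus nonpulsed (horizontal axis), for culture series 1, 2 and 3. The curve of series 1 is the widest (SD 0.452) and leans to higher values, and those of series 2 (0.275) and 3 (0.218) are narrower.

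Series 1 and 2 shared part of their pattern, and series 3 shared little with either. Across 18393 genes the paired differences of series 1 and 2 correlated at a Pearson r of 0.302, rising to 0.433 in the brighter 9196 genes. The same value was 0.0865 for series 1 and 3 and 0.0383 for series 2 and 3. The pairs share no arrays, and genes are not independent replicates, so these are descriptions. Of the 669 genes more than 2-fold higher in series 1, 584 (87.3%, against 56.4% of all genes) were above 0 in series 2 and 466 (69.7%, against 57.1%) in series 3. Of the 217 more than 2-fold lower in series 1, 120 (55.3%) were below 0 in series 2 and 105 (48.4%) in series 3, beside 43.6% and 42.9% of all genes. Of the 71 more than 2-fold higher in series 2, 44 (62.0%, against 57.1%) were above 0 in series 3. Of the 43 lower in series 2, 9 (20.9%, against 42.9%) were below 0 in series 3. Of the 37 higher in series 3, 11 (29.7%, against 56.4%) were above 0 in series 2, and 14 were more than 2-fold lower. Of the 8 lower in series 3, 5 (62.5%, against 43.6%) were below 0 in series 2. A size of more than 0.5 in 2 series was then set against the direction in the remaining one. Of the genes that much higher in series 2 and 3, 49 of 56 (87.5%, against 63.8% of all genes) were above 0 in series 1. Of those higher in series 1 and 3, 81 of 133 (60.9%, against 56.4%) were above 0 in series 2, and of those higher in series 1 and 2, 348 of 466 (74.7%, against 57.1%) were above 0 in series 3. Of the genes that much lower in series 2 and 3, 10 of 21 (47.6%, against 36.2%) were below 0 in series 1. Of those lower in series 1 and 3, 13 of 18 (72.2%, against 43.6%) were below 0 in series 2, and of those lower in series 1 and 2, 29 of 67 (43.3%, against 42.9%) were below 0 in series 3.

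**Figure D2:**
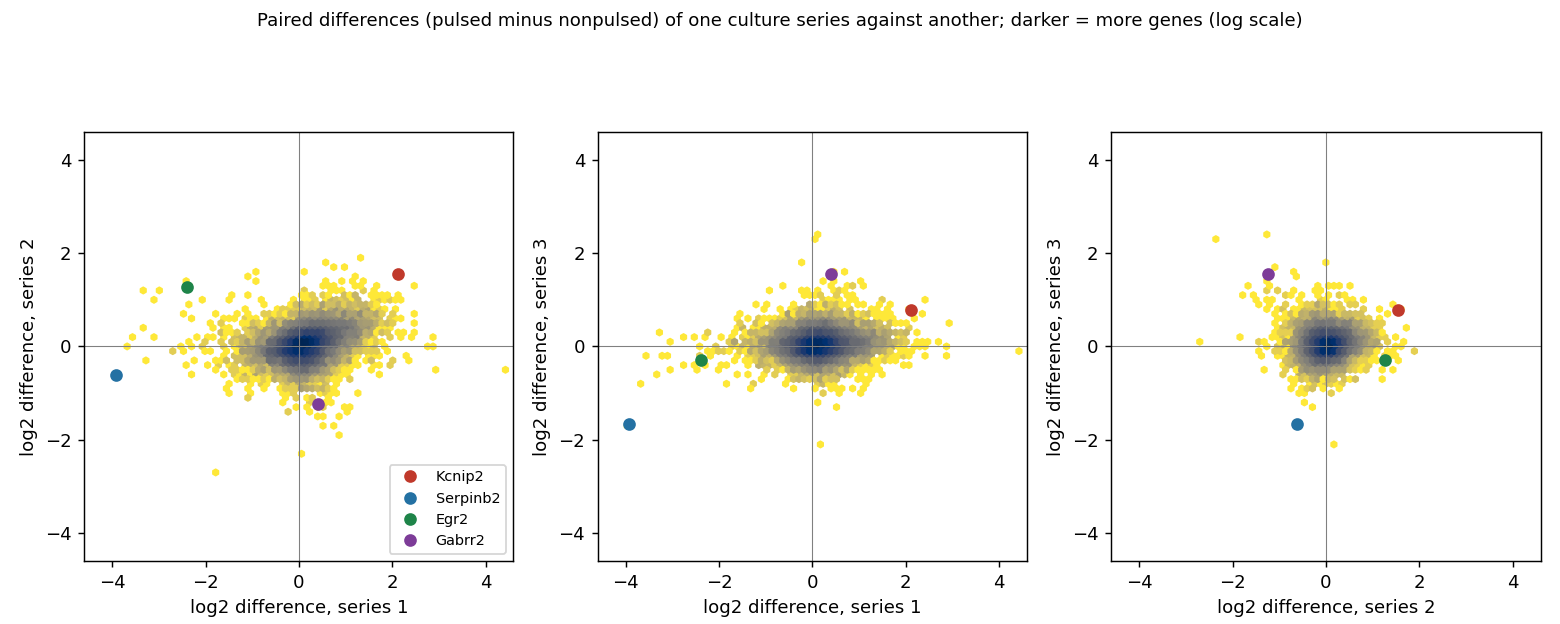
Paired log2 differences (pulsed minus nonpulsed) of all tested genes in one culture series against another, with darker cells holding more genes. Series 1 and 2 form a tilted cloud (r = 0.302), series 1 and 3 (0.0865) and 2 and 3 (0.0383) do not, and the coloured points mark Kcnip2, higher in each series, Serpinb2, lower in each, and Egr2 and Gabrr2, whose direction differs between series.

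Genes with 1 symbol and 1 direction in all 3 series were ranked by the smallest of their 3 differences. The first 12 higher and the first 12 lower are described next. The ranking used these values, so they carry no test of their own. The last gene inside the higher set was Lsmem1 (smallest difference 0.534, against 0.530 for Fitm2 just outside), and the last inside the lower set was Pvr (0.359 in size, against 0.357 for Rgs17 just outside). Their adjusted p in limma's paired fit was 0.566 in every case.

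Kcnip2, which encodes the auxiliary subunit of the channels that carry the transient outward potassium current, had the highest mean difference of all tested genes. Its log2 signal was 4.55, 6.29 and 8.25 in the nonpulsed arrays of series 1, 2 and 3, and 6.67, 7.85, 9.03 and 9.39 in the pulsed arrays of series 1, 2, 3 and 4. The groups overlapped, because the nonpulsed level differed more between series than the treatments did within one, yet the pulsed array lay above its partner in every pair. The differences were 2.12, 1.55 and 0.79, a mean of 1.49 ± 0.67 (SD, n = 3 pairs), which is 2.80-fold (limma SE 0.26, adjusted p = 0.566). A second probe set of Kcnip2 gave a mean of 1.55, and the remaining one, at a mean signal of only 5.10, gave -0.05.

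Klhl33, a kelch-family protein, had the highest smallest difference. Its signal was 5.43, 5.64 and 5.43 in nonpulsed and 6.90, 6.43, 6.39 and 6.76 in pulsed arrays, so all 4 pulsed arrays lay above all 3 nonpulsed ones. The paired differences were 1.47, 0.79 and 0.96 (mean 1.07 ± 0.36, SD, n = 3; limma adjusted p = 0.566). Doc2g, of the double C2-domain family, had 4.12, 4.48 and 5.46 against 5.83, 5.82, 6.13 and 6.25, also without overlap. Ppp1r3b, which targets protein phosphatase 1 to glycogen, had 6.24, 6.50 and 6.22 against 7.68, 7.38, 6.77 and 7.29, again without overlap. A dim second probe set of Ppp1r3b gave a mean of 0.39, with -0.65 in series 3. Hjv, encoding hemojuvelin, a co-receptor for bone morphogenetic proteins, had 5.23, 6.72 and 6.55 against 7.43, 7.28, 7.18 and 7.19. For Hjv the pulsed arrays were nearly level, and the wide range of the differences (2.21, 0.56 and 0.63) came from the low nonpulsed array of series 1.

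Lsmem1, a membrane protein gene, had 6.74, 7.14 and 7.02 in nonpulsed and 8.44, 7.81, 7.56 and 8.12 in pulsed arrays, with differences of 1.70, 0.67 and 0.53. Plpp3, a phosphatase of lipid phosphates, differed almost equally in the 3 series (0.71, 0.76 and 0.65), and its other probe sets gave means of 0.80 and 0.77. The differences of Gabrb2, a subunit of the GABA-A receptor, were 0.64, 0.70 and 0.63, though a dim second probe set gave a mean of -0.37. The signal of the main Gabrb2 probe set was itself low, 4.38 to 5.22 in nonpulsed and 5.01 to 6.02 in pulsed arrays. The remaining 4 higher genes were Zc3h6 (0.82, 0.63 and 0.69), Endou (0.97, 0.58 and 0.90), Sbk1 (0.79, 0.57 and 0.60) and Dgke, a diacylglycerol kinase (0.87, 0.58 and 0.55). A second probe set of Sbk1 gave a mean of 0.06. In 8 of the 12 higher genes all pulsed arrays lay above all nonpulsed arrays, as 1158 of all genes (6.3%) did.

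Among the lower genes, Il1rl1 stood first. It encodes ST2, the receptor of interleukin-33. Its signal was 11.32, 11.11 and 11.39 in nonpulsed and 10.01, 10.41, 10.63 and 11.10 in pulsed arrays. All pulsed arrays lay below all nonpulsed ones, that of series 4 only just. The differences were -1.31, -0.70 and -0.76 (mean -0.92 ± 0.33, SD, n = 3; limma adjusted p = 0.566), and a second probe set gave a mean of -0.68.

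Serpinb2, an inhibitor of the urokinase-type plasminogen activator, had the lowest mean difference of all tested genes. Its signal was 7.38, 8.43 and 9.54 in nonpulsed and 3.46, 7.83, 7.88 and 7.27 in pulsed arrays. The pulsed array of series 1 was at the lowest level that array reports, so its difference of -3.92 is only a bound, beside -0.61 and -1.67 in series 2 and 3. Cyp26b1, which degrades retinoic acid, had 8.15, 11.07 and 10.39 against 7.29, 10.60, 9.78 and 7.32, with differences of -0.85, -0.47 and -0.61. Its levels overlapped widely between the groups because those of series 1 and 4 were far lower than those of series 2 and 3.

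Gem, a small GTPase that restrains voltage-gated calcium channels, had differences of -1.05, -0.42 and -0.42. Herc6, through which rodent cells attach Isg15 to other proteins, had -0.78, -0.43 and -0.53, and RT1-S3, a class I histocompatibility gene, had -0.50, -0.50 and -0.72. RT1 genes are near-identical copies of each other, so the probe sets may read several of them, and 3 further probe sets annotated to RT1-S3 gave means of -0.39, -0.41 and -0.43. Pvr, a cell adhesion receptor, had -1.42, -0.36 and -0.62. The others were Slc35e4 (-0.76, -0.54 and -0.45), Dpysl3 (-0.57, -0.61 and -0.44), Mlana (-0.41, -0.95 and -0.62), Prss3bl1 (-1.11, -0.85 and -0.41) and Hoxa11 (-0.38, -0.44 and -0.37). A second probe set of Dpysl3 gave a mean of -0.03. Over the nonpulsed and pulsed arrays the signal was low for Herc6 (4.46 to 5.82), Dpysl3 (5.10 to 6.03) and Prss3bl1 (4.59 to 7.08). In 3 of the 12 lower genes, Il1rl1, Slc35e4 and Dpysl3, all pulsed arrays lay below all nonpulsed arrays, as 192 of all genes (1.04%) did.

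**Figure D3:**
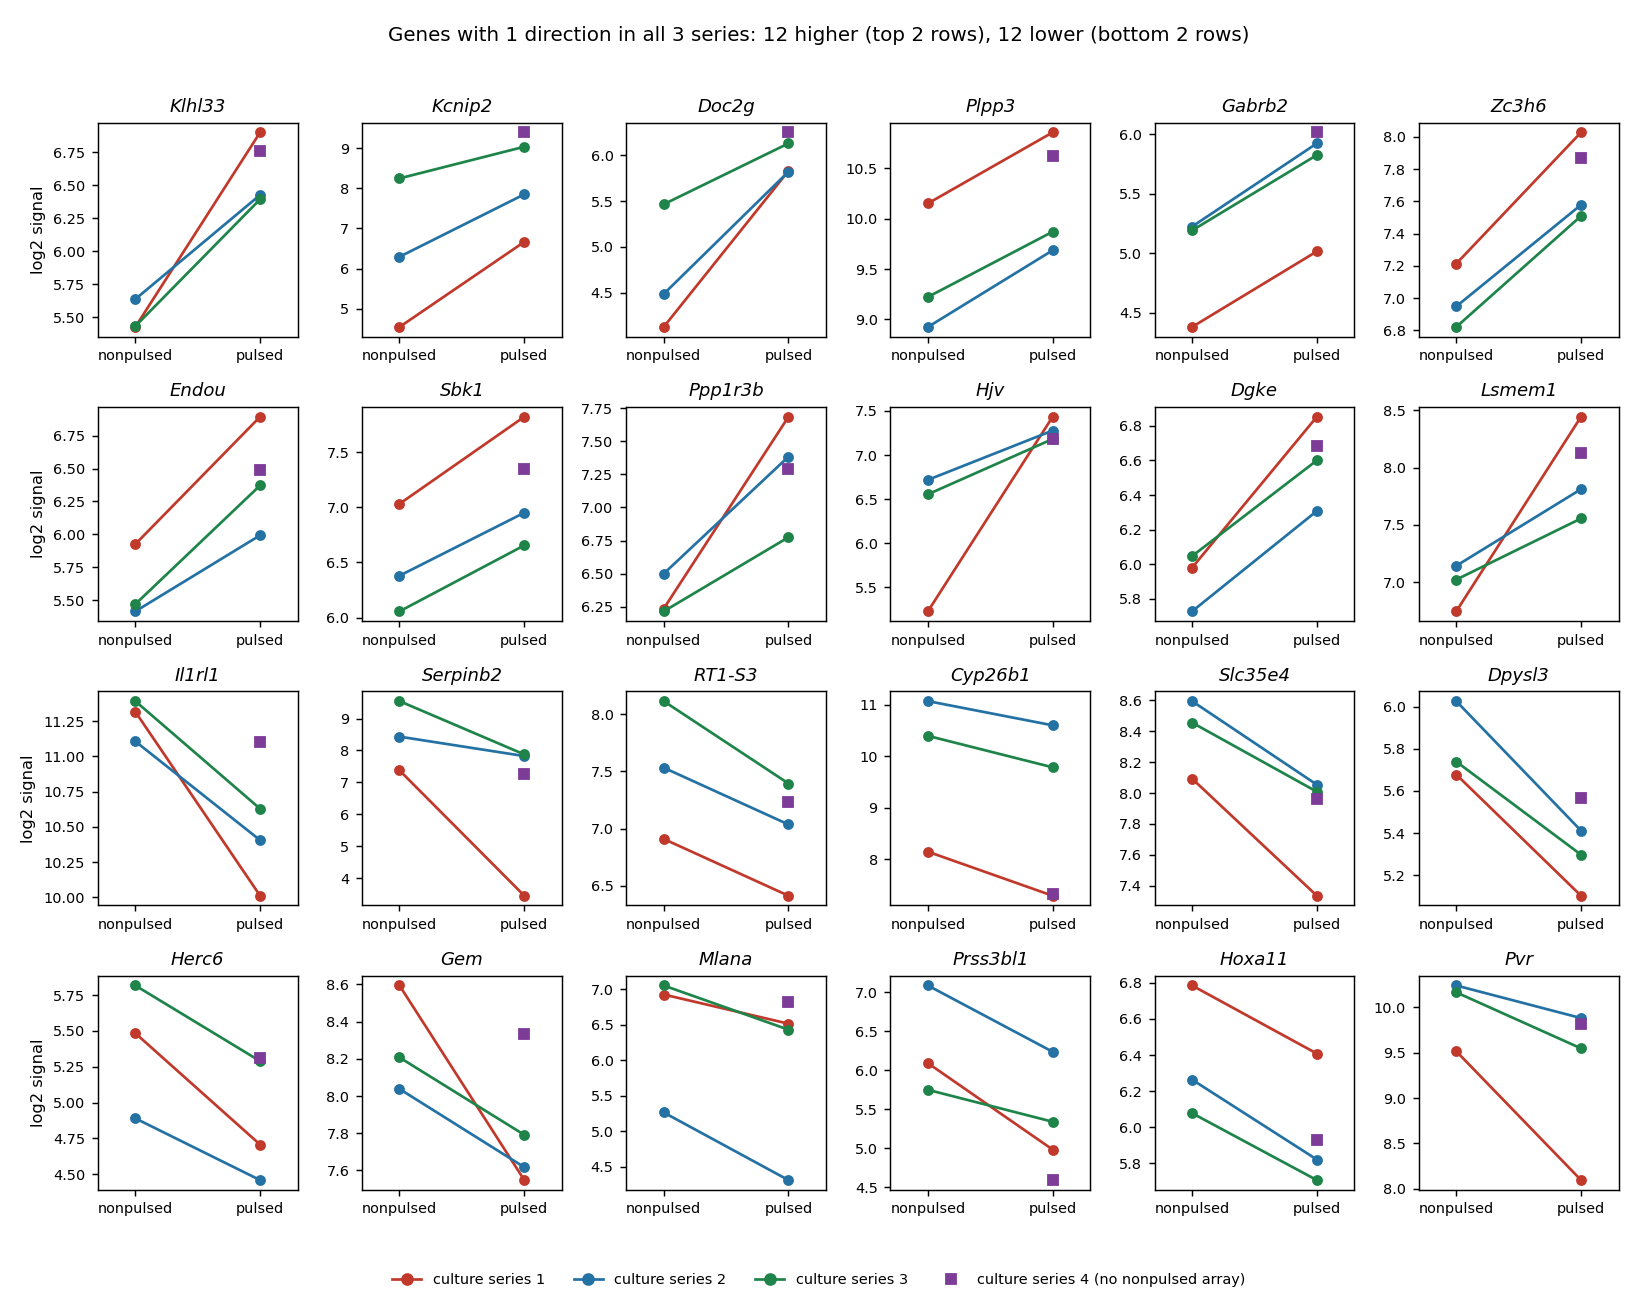
Log2 signal (vertical axis) of 24 genes in nonpulsed and pulsed arrays, with lines joining the arrays of culture series 1 (red), 2 (blue) and 3 (green) and a violet square for the unpaired pulsed array of series 4. Every line rises in the 12 upper panels and falls in the 12 lower ones, and in panels such as Kcnip2 and Cyp26b1 the series lie further apart than the treatments.

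Promoter sequences of 3 of these genes are shown because Kcnip2 had the highest mean difference, and Lsmem1 and Cyp26b1 were picked, after the search, for the motifs they hold. They run from 250 bases before to 50 after the annotated start, 5′ to 3′ on the gene's strand, from RefSeq on assembly GRCr8. Kcnip2 is at chr1:254613849-254614148, Lsmem1 at chr6:62988701-62989000 and Cyp26b1 at chr4:118616127-118616426, all on the minus strand. Capitals mark, on either strand, ACGTG (the hypoxia response core) and TATAAA (the TATA box) in Lsmem1 and TGACTCA (the AP-1 site) in Cyp26b1.
Kcnip2: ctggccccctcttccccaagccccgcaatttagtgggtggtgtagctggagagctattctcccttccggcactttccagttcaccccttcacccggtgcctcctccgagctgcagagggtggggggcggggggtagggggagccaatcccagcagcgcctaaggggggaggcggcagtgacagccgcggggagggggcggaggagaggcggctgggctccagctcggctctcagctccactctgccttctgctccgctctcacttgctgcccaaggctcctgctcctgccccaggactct
Lsmem1: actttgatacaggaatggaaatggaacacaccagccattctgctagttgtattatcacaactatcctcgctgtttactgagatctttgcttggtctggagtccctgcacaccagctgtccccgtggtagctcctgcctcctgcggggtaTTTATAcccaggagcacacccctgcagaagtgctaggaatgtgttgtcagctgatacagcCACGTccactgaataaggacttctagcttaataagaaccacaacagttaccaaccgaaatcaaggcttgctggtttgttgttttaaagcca
Cyp26b1: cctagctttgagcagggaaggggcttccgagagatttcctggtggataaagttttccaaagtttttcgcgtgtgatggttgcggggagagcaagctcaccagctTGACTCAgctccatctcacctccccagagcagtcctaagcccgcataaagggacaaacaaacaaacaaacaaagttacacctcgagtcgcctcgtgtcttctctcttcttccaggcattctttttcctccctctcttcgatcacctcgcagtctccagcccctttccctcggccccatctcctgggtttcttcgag
In Kcnip2 none of these 3 motifs was found in this window. Counted from the start, ACGTG lay at -41 and TATAAA at -101 in Lsmem1, and TGACTCA lay at -146 in Cyp26b1.

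The same motifs were counted on both strands in the promoters of all tested genes with 1 symbol that had one (9864 of 11846). ACGTG was in 25.2% of all, in 24.1% of the 2262 genes above 0 in all 3 series and in 28.9% of the 1091 below 0 in all 3. TGACTCA was in 3.41%, 2.61% and 4.22%, and TATAAA in 7.39%, 6.59% and 8.52%. TCAAGGTCA, the ERR element, was in 22 of all promoters (0.223%), in 9 of the first set (0.398%) and in 2 of the second (0.183%). TGACCT, the reverse complement of the nuclear receptor core site contained in the ERR element, was in 11.9%, 11.8% and 11.8%. CACGTG, the E-box, which contains ACGTG, was in 9.38%, 8.80% and 10.9%, and TGACGTCA, the CRE, in 3.24%, 2.79% and 2.29%. The MEF2-like core (CTA, any 4 bases, TAG) was in 2.95%, 2.52% and 2.75%, and the loose CArG-like frame (CC, any 6 bases, GG) was in 85.9%, 86.8% and 86.2%. A match is a description of these letters and says nothing of binding.

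Genes were then grouped by function in 29 lists, described by their counts and medians beside those of all tested genes. Over all tested genes the median mean difference was 0.05, with 24.7% above 0 and 9.67% below 0 in all 3 series. The median was above 0 in 21 of the 29 lists. Of the 17 lists with a median above 0.1, all had their highest series median in series 1, and 16 had medians in the order series 1, 2, 3. In 14 of these 17 lists the median level was lowest in the nonpulsed array of series 1 among the nonpulsed arrays. In 12 of them the pulsed arrays of series 1, 2 and 3 had a narrower range of median levels than the nonpulsed arrays. The larger differences of series 1 went with a low nonpulsed array in most of these lists. That array enters the differences by which the lists were picked, so part of this is built in. What set its level was not tested. Without series 1 the medians of the 17 lists lay between -0.02 (pyruvate dehydrogenase) and 0.29 (potassium channels).

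**Figure D4:**
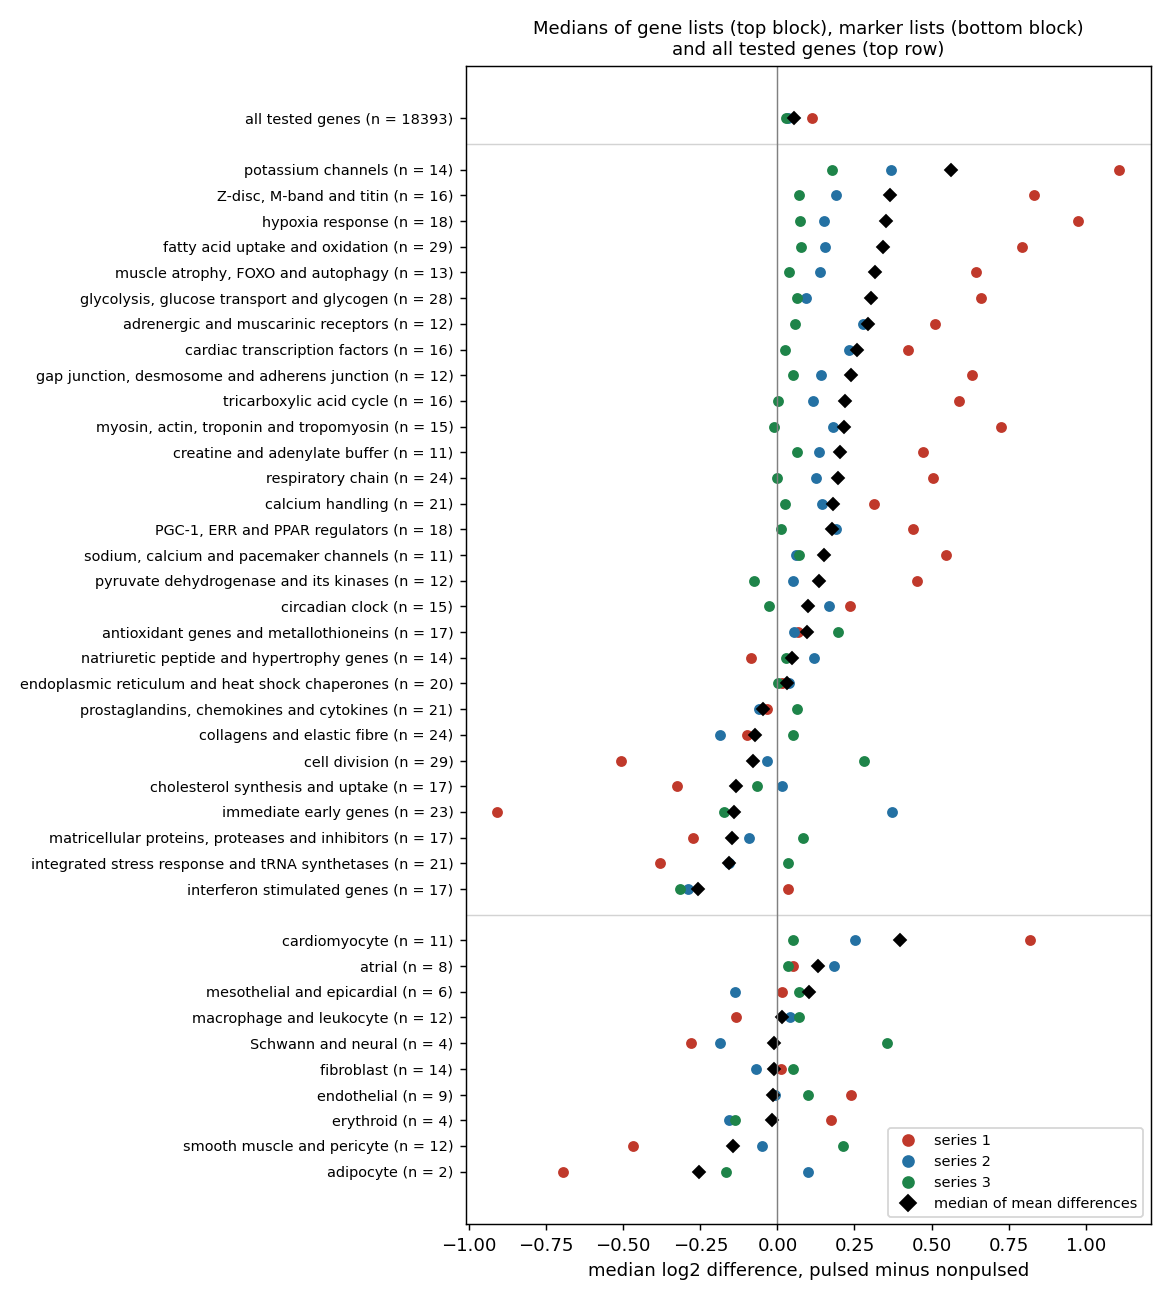
Median log2 difference (pulsed minus nonpulsed, horizontal axis) of each gene list within culture series 1 (red), 2 (blue) and 3 (green), and the median of the mean differences over the 3 series (black diamonds). Potassium channels have the highest list median (0.56), interferon stimulated genes have the lowest of the functional lists (-0.26), and all tested genes are at 0.05.

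Potassium channel genes had the highest median of the 29 lists. The median difference of the 14 tested was 0.56, and 1.11, 0.37 and 0.18 in series 1, 2 and 3. In all 3 series 10 of 14 (71.4%) were above 0 and 1 was below, 5 of 14 lay wholly above the nonpulsed arrays (6.3% of all genes did), and 8 had an unadjusted p under 0.05, all higher (7.29% of all genes). Their median level was 6.64, 7.21 and 7.56 in nonpulsed and 7.52, 7.91, 7.77 and 7.67 in pulsed arrays. Without series 1 the list median was 0.29.

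The subunits of the transient outward current were not alike. Besides Kcnip2, the pore-forming subunit Kcnd3 had 7.57, 6.45 and 6.72 in nonpulsed and 8.15, 7.38, 6.99 and 7.94 in pulsed arrays (differences 0.58, 0.93 and 0.28), and Kcna4 had differences of 0.72, 0.72 and 0.14. Kcnd2, the other pore-forming partner of Kcnip2, had 0.26, 0.16 and -0.25. Both genes of the cardiac ATP-sensitive channel were above 0 in each series. Kcnj11, its pore, had 6.71, 7.97 and 8.28 against 8.68, 8.64, 8.57 and 8.56, and Abcc9, its sulphonylurea receptor, had differences of 1.33, 0.33 and 0.29. For Kcnj11 the pulsed arrays were nearly level, and the nonpulsed array of series 1 was the low one.

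Kcnh2, the pore of the rapid delayed rectifier, had differences of 1.54, 0.58 and 0.20. Kcnj5, a subunit of the acetylcholine-activated channel, had 1.41, 0.91 and 0.21, and its partner Kcnj3 had 0.18, 0.23 and 0.22. Kcne1, the auxiliary subunit of the slow delayed rectifier, was the lowest of the list. Its signal was 4.30, 5.25 and 8.05 in nonpulsed and 4.21, 4.19, 7.99 and 3.79 in pulsed arrays, so both arrays of series 3 stood far above the rest. Its pore-forming partner Kcnq1 had differences of 1.36, 0.32 and -0.43.

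The 11 sodium, calcium and pacemaker channel genes had a median of 0.15, with 5 (45.5%) above 0 in all 3 series. Cacna1g, a T-type calcium channel, was the highest with 7.27, 7.52 and 6.74 in nonpulsed and 8.74, 8.07, 7.02 and 8.34 in pulsed arrays (mean difference 0.76 ± 0.62, SD, n = 3). Cacna1c, the pore of the L-type channel, had differences of 0.78, 0.31 and 0.29, and its pulsed arrays lay above all nonpulsed ones. Hcn2, a pacemaker channel, was the lowest at -0.04.

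For calcium handling (21 genes) the median was 0.18, with 8 (38.1%) above 0 in all 3 series and 0 below. Hrc, which binds calcium inside the sarcoplasmic reticulum, was the highest, with 7.54, 8.10 and 8.47 in nonpulsed and 8.86, 9.04, 8.68 and 8.83 in pulsed arrays. The groups of Hrc did not overlap. Ryr2, the calcium release channel, had differences of 1.54, 0.40 and 0.11, and Atp2a2, the calcium pump that refills the store, had 0.81, 0.25 and 0.05. A second probe set of Ryr2 had 1.56, 0.72 and -0.29. Other probe sets of Atp2a2 gave means of 0.08 to 0.70. The brightest of these, at a mean signal of 11.36, had another order of series (-0.10, 0.21 and 0.27). Pln, the inhibitor of that pump, had 0.31, 0.15 and 0.05, and Slc8a1, the sodium-calcium exchanger, had 0.48, 0.25 and 0.01. Fkbp1b, which binds the release channel, was the lowest of the list at -0.44 (-1.15, -0.28 and 0.12).

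Genes of the contractile apparatus were higher in series 1 and 2 and near 0 in series 3. The 15 genes of myosin, actin, troponin and tropomyosin had a median of 0.22 (0.72, 0.18 and -0.01 in series 1, 2 and 3). In all 3 series 4 (26.7%) were above 0, near the 24.7% of all genes. Myh6, the fast myosin heavy chain, had 12.57, 13.18 and 13.19 in nonpulsed and 13.38, 13.43, 13.33 and 13.38 in pulsed arrays. Myh7, the slow heavy chain that dominates before birth in rat ventricle, had 12.78, 13.29 and 13.02 against 13.52, 13.51, 13.04 and 12.98. Both chains thus had their low value in the nonpulsed array of series 1. Second probe sets of Myh6 and Myh7 gave means of 0.70 and 0.42, with -0.08 and -0.34 in series 3. Mylk3, the cardiac myosin light chain kinase, had differences of 1.53, 0.56 and -0.01, and Tpm2 was the lowest at -0.12. Acta1, skeletal actin, had a mean of 0.22 in the pairs and -0.03 when the 3 nonpulsed arrays were set against all 4 pulsed ones, the array of series 4 included.

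The 16 genes of the Z-disc, M-band and titin had a median of 0.37 (0.83, 0.19 and 0.07). In all 3 series 9 (56.25%) were above 0 and 0 were below. Myom2, a protein of the M-band, had 10.24, 10.90 and 11.47 in nonpulsed and 11.81, 11.92, 11.54 and 12.27 in pulsed arrays, without overlap. Ttn, encoding titin, had differences of 1.06, 0.19 and 0.22, and Actn2, the Z-disc actinin, had 1.03, 0.33 and 0.21. Pdlim1 was the lowest at -0.04.

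Junction genes had a median of 0.24 over 12 genes, with 6 (50%) above 0 in all 3 series. Gja1, encoding connexin 43, the main ventricular gap junction protein, had 11.77, 12.69 and 12.81 in nonpulsed and 12.84, 12.98, 12.95 and 12.83 in pulsed arrays. The pulsed arrays lay above all nonpulsed ones, with a mean difference of 0.50 ± 0.50 (SD, n = 3). Other probe sets of Gja1 gave means of 0.11 and 0.61, the latter with -0.27 in series 3. Dsp, encoding desmoplakin, had differences of 1.22, 0.27 and 0.32, and Dsg2, a desmosomal cadherin, 1.53, 0.30 and 0.01. Vcl, encoding vinculin, was the lowest at -0.16.

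Adrenergic and muscarinic signalling genes had a median of 0.29 over 12 genes, with 6 (50%) above 0 in all 3 series. Adra1b, an alpha-1 receptor, had 7.75, 8.58 and 8.65 in nonpulsed arrays, and its paired differences were 2.08, 1.04 and 0.35. All its pulsed arrays lay above these levels, at 9.83 in series 1 and 9.78 in series 4. Adrb1, the main beta receptor of the heart, had differences of 0.61, 0.32 and 0.11, and Chrm2, the muscarinic receptor, 0.75, 0.30 and 0.08. Gnai2 was the lowest at -0.06.

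Cardiac transcription factors had a median of 0.26 over 16 genes, and 10 (62.5%) were above 0 in all 3 series. Irx4, a ventricular homeobox factor, had 7.79, 8.39 and 8.58 in nonpulsed and 9.78, 9.10, 8.77 and 9.17 in pulsed arrays. Myocd, the coactivator myocardin, had differences of 1.27, 0.58 and 0.16, Tbx5 had 1.22, 0.46 and 0.22, and Mef2c had 0.32, 0.47 and 0.18. Nfatc1, a target of calcineurin, was the 1 gene of the list below 0 in all 3 series (-0.20, -0.65 and -0.22).

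Natriuretic peptides and other genes linked to hypertrophy had no common direction. The median of the 14 tested was 0.05, and after median centring it was -0.03. Nppa, encoding the atrial peptide, had 13.56, 13.69 and 13.71 in nonpulsed and 13.46, 13.61, 13.61 and 13.10 in pulsed arrays, differences of -0.09, -0.08 and -0.10. Nppb, encoding the B-type peptide, had 0.18, 0.27 and 0.01. Agtr1a, a receptor of angiotensin II, was the highest of the list at 0.52. Hbegf, an EGF-like growth factor, was the lowest at -0.89, which rested on series 1 (-2.31, 0.10 and -0.46), and Gdf15, a stress cytokine, had -1.20, -0.24 and -0.43.

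Energy metabolism genes were higher as a group in series 1 and less so in series 2. For fatty acid uptake and oxidation the median over 29 genes was 0.34 (0.79, 0.16 and 0.08 in series 1, 2 and 3). In all 3 series 19 of 29 (65.5%) were above 0 and 0 were below, and 9 lay wholly above the nonpulsed arrays, beside 6.3% of all genes. The list's median level was 10.11, 10.62 and 10.74 in nonpulsed and 11.19, 11.02, 10.85 and 10.89 in pulsed arrays. All 4 pulsed medians therefore lay above the 3 nonpulsed ones, with the low nonpulsed value in series 1. Without series 1 the list median difference was 0.13.

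Cpt1b, the muscle carnitine palmitoyltransferase that admits fatty acids to mitochondria, had 10.11, 10.97 and 11.05 in nonpulsed and 11.28, 11.36, 11.37 and 11.24 in pulsed arrays (mean 0.62 ± 0.47, SD, n = 3). Hadh and Acadm, dehydrogenases of beta oxidation, had differences of 1.03, 0.50 and 0.24, and of 0.99, 0.31 and 0.24. Angptl4, a secreted inhibitor of lipoprotein lipase, followed another pattern, with -0.06, -0.09 and 1.23. Ucp3 was the lowest at -0.05.

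Regulators of this programme had a median of 0.18 over 18 genes, and 8 (44.4%) were above 0 in all 3 series. The coactivator Ppargc1b had 5.98, 6.96 and 8.05 in nonpulsed and 7.87, 8.06, 8.11 and 8.50 in pulsed arrays, so that its nonpulsed arrays spread more widely than its pulsed ones. Ppargc1a, its relative, had differences of 0.91, 0.59 and 0.27, and its unpaired pulsed array of series 4 (8.58) lay among the nonpulsed ones. Other probe sets of Ppargc1a gave means of 0.39 and 0.70. Esrrg, an estrogen-related receptor, had 1.25, 0.37 and 0.20, Rxrg, a partner of the PPARs, 1.53, 0.87 and 0.14, and Prkaa2, a catalytic subunit of AMP-activated kinase, 1.47, 0.43 and 0.23. Ppard was the lowest at -0.08.

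Genes of glycolysis, glucose transport and glycogen had a median of 0.30 over 28 genes, with 16 (57.1%) above 0 in all 3 series and 8 wholly above the nonpulsed arrays, beside 6.3% of all genes. Pgam2, the muscle phosphoglycerate mutase, had 6.66, 7.14 and 7.75 in nonpulsed and 8.74, 7.91, 8.15 and 8.19 in pulsed arrays. The glucose transporter Slc2a1 had differences of 1.12, 0.48 and 0.27, and Slc2a4, the insulin-responsive one, 1.31, 0.52 and 0.12. Pygm, the muscle glycogen phosphorylase, had 1.31, 0.39 and 0.29. Pfkfb2, which makes the activator of phosphofructokinase, differed almost equally in the 3 series (0.47, 0.46 and 0.34). Pfkfb4 was the lowest at -0.08.

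For the tricarboxylic acid cycle (16 genes) the median was 0.22, with 9 (56.25%) above 0 in all 3 series. For the respiratory chain (24 genes) it was 0.20, with 9 (37.5%) above 0 in all 3 series. Both lists had their difference in series 1 and 2. Their medians in series 3 were 0.00 and -0.00, from 0.59 and 0.50 in series 1. Idh2 was the highest of the cycle at 0.38 and Idh3a the lowest at 0.09, and Cox8b (0.48) and Cox5a (-0.18) marked the ends of the chain. Pyruvate dehydrogenase and its kinases had a median of 0.13 over 12 genes, which was -0.02 without series 1. Pdk1, the highest, had 1.54, 0.41 and 0.13, and Pdp2, the lowest, had a mean of -0.07. The creatine and adenylate list had a median of 0.20 over 11 genes. Its highest member was Ckmt2, the mitochondrial creatine kinase (6.93, 7.64 and 8.35 in nonpulsed and 9.42, 8.33, 8.41 and 8.36 in pulsed arrays), and Gatm was the lowest at -0.16. Nmrk2, a kinase of NAD synthesis, had 0.39, 0.33 and 0.61.

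For the hypoxia response (18 genes) the median was 0.35, and 7 (38.9%) were above 0 in all 3 series. The series medians were 0.97, 0.15 and 0.07. Without series 1 the median was 0.10. Egln3, an oxygen-sensing prolyl hydroxylase, was the highest with 1.88, 0.40 and -0.08, and Vegfa, the vascular growth factor, had 1.33, 0.10 and 0.04. Hmox1, encoding haem oxygenase, differed in each series (0.41, 0.44 and 0.67), with 9.36, 9.96 and 9.42 in nonpulsed and 9.78, 10.40, 10.09 and 10.09 in pulsed arrays. Hif1a itself had -0.25, 0.07 and 0.07.

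The list of muscle atrophy, FOXO and autophagy genes had a median of 0.32 over 13 genes, with 7 (53.8%) above 0 in all 3 series. The ubiquitin ligase Fbxo32 had 0.64, 0.82 and 0.15 and the ligase Trim63 had 1.42, 0.69 and -0.09. Bnip3, a mitophagy receptor also counted under hypoxia, was the highest at 0.72 and Ctsl the lowest at -0.05. Antioxidant genes had a median of 0.09 over 17 genes and, unlike the lists above, the highest series median in series 3 (0.07, 0.05 and 0.20). Osgin1, a target of the factor NRF2, had 5.67, 6.93 and 6.30 in nonpulsed and 6.87, 7.44, 6.98 and 6.53 in pulsed arrays, with differences of 1.20, 0.51 and 0.68. Gpx3 was the lowest at -0.22. Chaperones had a median of 0.03 over 20 genes, which was -0.04 after median centring, between Bag3 (0.33) and Hspa1a (-0.40). Circadian clock genes had a median of 0.10 over 15 genes, between Npas2 (0.60) and Nfil3 (-0.48).

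Fewer groups were lower. The 17 interferon stimulated genes had the lowest median of the functional lists, -0.26, and 6 (35.3%) were below 0 in all 3 series while 0 were above, beside 9.67% and 24.7% of all genes. The differences lay in series 2 (median -0.29, 15 of 17 below 0) and series 3 (-0.32, 14 of 17), and not in series 1 (0.03, 7 of 17). Isg15, a ubiquitin-like protein, had 6.74, 6.81 and 8.63 in nonpulsed and 6.68, 5.50, 8.09 and 6.48 in pulsed arrays. Gbp2, a guanylate-binding protein, had -0.57, -0.53 and -0.32, and Irf7, a factor that drives interferon genes, had 0.24, -0.52 and -0.58. Irf1 was the highest at 0.16.

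Integrated stress response and tRNA synthetase genes had a median of -0.16 over 21 genes (-0.38, -0.16 and 0.03), with 8 (38.1%) below 0 in all 3 series and 1 above. Psph, the phosphatase that completes serine synthesis, had 9.29, 9.18 and 9.04 in nonpulsed and 8.60, 8.86, 9.01 and 8.69 in pulsed arrays, and the groups did not overlap. Asns, asparagine synthetase, also did not overlap (-0.61, -0.18 and -0.00). Chac1 was the lowest at -0.47, and Sesn2 the highest at 0.08. Cholesterol genes had a median of -0.13 over 17 genes, with 5 (29.4%) below 0 in all 3 series. The series medians were -0.33, 0.01 and -0.07, and without series 1 the list median was -0.02. Msmo1, a sterol oxidase, was the lowest at -0.37, and Srebf2 the highest at 0.04, a sign that turned under both other scalings.

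Cell division genes differed in opposite directions between series. The medians of the 29 tested in series 1, 2 and 3 were -0.51, -0.03 and 0.28, and 0 genes had 1 direction in all 3 series. In series 1, 28 of 29 were below 0, and in series 3, 27 of 29 were above 0. Top2a, a topoisomerase of dividing cells, had 9.86, 9.13 and 9.03 in nonpulsed and 9.51, 9.28, 9.58 and 9.21 in pulsed arrays. The nonpulsed array of series 1 and the pulsed array of series 3 were the highest of the 7. The overall median of -0.08 therefore describes no series, and it was 0.12 without series 1. The ends of the list were Nusap1 (0.12) and Aurka (-0.26).

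Matrix genes were near 0 with a slight lean downwards. Collagens and elastic fibre genes had a median of -0.07 over 24 genes, with 5 (20.8%) below 0 in all 3 series and 0 above. Col15a1, a basement membrane collagen, had 10.68, 9.55 and 9.37 in nonpulsed and 9.48, 8.96, 9.04 and 10.51 in pulsed arrays. Its differences were -1.20, -0.59 and -0.33, and a second probe set gave a mean of -0.78. Col12a1 had -0.39, -0.40 and -0.21, and the fibrillar Col1a1 had 0.01, -0.17 and 0.04. Fbln1 was the highest at 0.28. Matricellular genes and proteases had a median of -0.15 over 17 genes (-0.27, -0.09 and 0.08 in series 1, 2 and 3). It was -0.03 without series 1, and 0.01 when all 4 pulsed arrays were set against the nonpulsed ones without the block. The members lay between Timp3 (0.23) and Has2 (-0.90), a hyaluronan synthase whose value came from series 1 alone (-2.75, -0.11 and 0.14). Prostaglandin, chemokine and cytokine genes had a median of -0.05 over 21 genes, between Il11 (0.70) and Ptgs2 (-1.47).

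Markers of the cardiomyocyte were themselves higher in series 1 and 2, and their part in the results was not tested. Several of these markers, such as Ryr2, Pln, Myh6, Ttn and Actn2, also belong to lists described above and are counted again here. The 11 tested had a median difference of 0.40, and 0.82, 0.25 and 0.05 in series 1, 2 and 3, with 7 above 0 in all 3 series and 1, Nppa, below. Their median level was 11.75, 12.58 and 12.78 in nonpulsed and 12.75, 13.06, 12.85 and 12.57 in pulsed arrays. The log2 of their summed signal ranged from 15.76 to 16.28 in nonpulsed and from 16.22 to 16.48 in pulsed arrays. These are RNA levels of whole dishes, in which a larger share of cardiomyocytes and more of these RNAs per cell cannot be told apart.

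Markers of other cells had overall medians nearer to 0, with opposite signs between series in several lists. For the 14 fibroblast markers the median difference was -0.01 (0.01, -0.07 and 0.05), and the log2 of their summed signal was 15.78 to 16.34 in nonpulsed and 15.69 to 16.30 in pulsed arrays. Their median level differed more between series (12.28, 10.14 and 11.19 in nonpulsed arrays) than between treatments (12.48, 10.01, 11.21 and 12.25 in pulsed arrays). Thy1 was the lowest of them at -0.48 and Tcf21 the highest at 0.31. For smooth muscle and pericytes (12 markers) the median was -0.15 (-0.47, -0.05 and 0.21), with summed levels of 14.22 to 14.76 and 14.33 to 14.50, and without series 1 the median was 0.09. Cnn1 was the lowest at -0.70 and Rgs5 the highest at 0.42. In the order of the series these medians ran against those of the cardiomyocyte markers, and their part in the results was not tested.

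The 9 endothelial markers had a median of -0.01 and summed levels of 10.61 to 11.12 in nonpulsed and 10.65 to 11.23 in pulsed arrays, but they did not move together. Pecam1, an adhesion molecule of endothelium, had 5.42, 4.16 and 4.56 in nonpulsed and 7.08, 4.68, 5.40 and 6.10 in pulsed arrays, and Kdr, a receptor of the vascular growth factor, had differences of 1.87, 0.48 and 0.49. Flt1, the other such receptor, had -1.46, 0.59 and 0.07. Other probe sets of Flt1 gave means of -0.06 and -0.45, and the latter was below 0 in each series (-0.72, -0.19 and -0.43). For macrophages and leukocytes (12 markers) the median was 0.01, -0.06 after median centring, and summed levels of 11.05 to 12.82 and 10.94 to 12.60, between Cd74 (1.00) and Ptprc (-0.43). Atrial markers (8 genes, summed levels 14.13 to 14.38 and 13.76 to 14.34) had a median of 0.13, between Fgf12 (0.55) and Dkk3 (-0.17). Mesothelial and epicardial markers (6 genes, 9.97 to 10.37 and 9.77 to 10.71) had 0.10, between Krt18 (0.33) and Upk1b (-0.33). Erythroid markers (4 genes, 8.12 to 8.34 and 8.08 to 8.27) had -0.02, between Slc4a1 (0.05) and Alas2 (-0.17). Schwann and neural markers (4 genes, 8.90 to 10.00 and 8.66 to 9.41) had -0.01 (-0.28, -0.19 and 0.36 by series), between Gfap (0.14) and S100b (-0.36). The 2 adipocyte markers (7.51 to 9.23 and 7.10 to 9.36) were Adipoq (0.13) and Fabp4 (-0.64), with series medians of -0.70, 0.10 and -0.17.

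The genes with the highest and lowest differences within 1 series, ranked among those with 1 symbol, were mostly not shared by the others. In series 1 the highest was F13a1, the A chain of coagulation factor XIII, which macrophages also make. It had 4.96 to 5.05 in nonpulsed and 9.52, 4.53, 4.90 and 4.49 in pulsed arrays, so the pulsed array of series 1 stood alone. A second probe set of F13a1 gave 4.93 in that series. The next was Hapln4 (2.92, -0.51 and -0.22 in series 1, 2 and 3), whose nonpulsed array of series 1 was at the lowest level of that array, so that 2.92 is only a bound. Its other probe sets gave -0.14 and -0.26 in series 1. Then came Mfap2, a microfibril protein (2.91, 0.03 and 0.54), and Igfbp3, which binds insulin-like growth factors (2.87, 0.19 and -0.05). The lowest of series 1 after Serpinb2 were Ptgs2, Fosb and Ch25h.

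In series 2 the highest was Dhrs7c, a dehydrogenase of the sarcoplasmic reticulum, with 6.92, 7.94 and 8.23 in nonpulsed and 8.20, 9.83, 8.08 and 9.02 in pulsed arrays (1.27, 1.90 and -0.15). It was followed by Fos (1.57), Hfe, an iron-regulating protein (1.56, from 5.16 to 6.72), and Kcnip2. A dimmer second probe set of Fos gave -0.04 in series 2. The lowest of series 2 was Myl1, a skeletal myosin light chain, with 7.34, 9.47 and 6.48 in nonpulsed and 5.58, 6.81, 6.57 and 6.36 in pulsed arrays. Then came Nr0b1 (-1.42), A2m (-1.33, but 0.99 in series 1) and Isg15 (-1.30). In series 3 the highest with 1 symbol were Hist4h4 (1.80), Spetex2l1 (1.64), Gabrr2 (1.55) and Kcnk9, a potassium channel (0.87, 0.27 and 1.35). The highest difference of that series, 2.37, belonged to a probe set without a single symbol. The lowest of series 3 were Nptx1, a neuronal pentraxin (0.17, 0.22 and -2.12), Serpinb2, Usp18, which removes Isg15 from proteins (0.48, -0.32 and -1.28), and LOC100909866 (-1.21).

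Immediate early genes, which are induced within minutes of a stimulus, went in opposite directions. The median of the 23 tested was -0.91 in series 1, where 21 were below 0, 0.37 in series 2, where 21 were above 0, and -0.17 in series 3, where 19 were below 0. Egr1 had 11.91, 9.86 and 9.86 in nonpulsed and 10.78, 11.35, 9.64 and 12.47 in pulsed arrays. Egr2 had differences of -2.40, 1.28 and -0.28, with 11.14 in series 4, and Fos had 9.74, 7.92 and 8.28 against 8.80, 9.48, 7.95 and 10.16. The high arrays were the nonpulsed one of series 1 and the pulsed ones of series 2 and 4. The median level of the list on these arrays was 9.06, 9.12 and 10.16, and 7.95 to 8.28 on the other 4. Dimmer second probe sets had differences of 0.02, -0.04 and -0.25 for Fos and of -2.04, 0.35 and -0.11 for Egr2.

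For each of the inducible genes named next, the pulsed array of series 4 was the highest of the 7. Cxcl1, a chemokine, had 7.52, 4.34 and 4.32 in nonpulsed and 4.50, 5.57, 3.77 and 8.89 in pulsed arrays, and Ch25h, which makes 25-hydroxycholesterol, had 9.39, 6.01 and 7.51 against 6.07, 7.22, 6.86 and 9.40. Ptgs2, the inducible cyclooxygenase, had 10.52, 10.24 and 9.87 against 6.87, 10.23, 9.12 and 11.28. Fosb had 8.70, 5.95 and 5.09 against 5.14, 6.20, 4.88 and 9.10, and Fosl1 was the lowest of its list at -1.25 (-3.25, -0.33 and -0.17). Dusp5, a phosphatase of ERK, was the highest, with all pulsed arrays above all nonpulsed ones (8.69, 8.28 and 8.58 against 8.81, 9.38, 8.73 and 10.38).

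**Figure D5:**
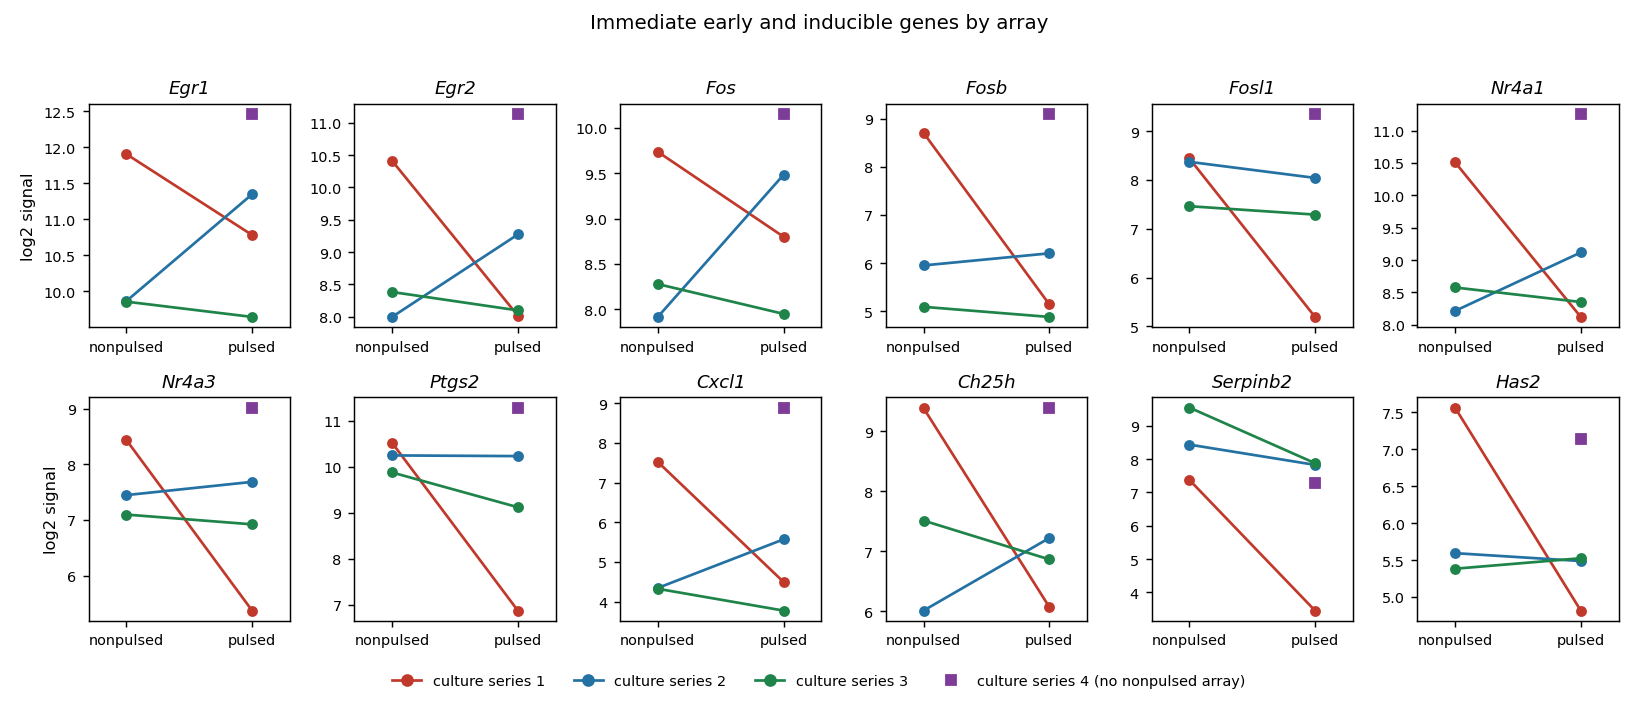
Log2 signal (vertical axis) of 12 immediate early and inducible genes in nonpulsed and pulsed arrays, drawn as lines for culture series 1 (red), 2 (blue) and 3 (green) and a violet square for the pulsed array of series 4. In panels such as Egr2 and Cxcl1 the red line falls and the blue line rises, and the square of series 4 is the highest point of each panel except Serpinb2 and Has2.

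Over all genes and probe sets, 24 were more than 2-fold higher in 1 series and more than 2-fold lower in another, 9 of them with 1 gene symbol. Lower in series 1 and higher in series 2 were 8, of which 7 had a symbol: Scg2, Egr1, Trpc6, Ch25h, Egr2, Cxcl1 and Gadd45g. Lower in series 2 and higher in series 3 were 14, of which only Gabrr2, a GABA receptor subunit, and Spetex2l1 had a symbol. The median signal of these 14 was 5.55, 6.94 and 5.30 in the nonpulsed arrays of series 1, 2 and 3, and 6.10, 5.80, 6.68 and 5.69 in the pulsed arrays of series 1 to 4. On the blebbistatin arrays of series 2, 3 and 4 it was 6.97, 6.55 and 5.84. These dim probe sets were thus high on the nonpulsed array of series 2, the pulsed array of series 3 and the blebbistatin arrays of series 2 and 3.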

How the data were processed

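Values are the log2 signals per probe set deposited by the authors, 1 column per array. RNA was extracted with Trizol and biotin-labelled by the Affymetrix protocol, per the labels' protocols, and, per the submitters' processing notes, the software was Affymetrix Expression Console 1.1 and the algorithm PLIER. Its settings and the base of the logarithm were not given in the sources used here. Log base 2 was taken from the values, whose lowest levels then lie near a round linear signal. Gene names came from the platform annotation, which gave 1 symbol to 20826 of 31099 probe sets, several to 436 and none to 9780. The 57 control probe sets were removed, and no gene was named from a probe set with several symbols or none.

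Probe sets in the lowest 25% by mean over all 10 arrays (log2 signal under 5.09) were left out, and the brightest of each gene was kept. Pulsed and nonpulsed arrays of series 1, 2 and 3 were compared with limma 3.58.1 in R 4.3.3 (two-sided, Benjamini-Hochberg adjustment over 18393 genes, threshold 0.05), with culture series as a fixed block. The pairing comes from the dates in the array titles. Deviations of same-series arrays from their group means correlated at r = 0.510, 0.601 and 0.383, against -0.503 to 0.035 for different series. Within a group these deviations sum to 0 for each gene, so values above 0 within series push those between series below 0. The contrast is therefore partly built in and is no independent check of the pairing. The block removes differences in level between culture series. The p-values reflect how the paired difference varied between series, with each gene's spread moderated by limma towards that of all genes. The number of arrays limits the precision. The procedure was tested on simulated data whose planted changes were larger than any mean difference seen here. That test does not show whether changes of the size seen here would be found.

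Named genes were the first 12 in each direction by their smallest paired difference, the 5 smallest p-values in each direction, the 4 highest and 4 lowest of each series, the 4 widest opposite ones, the ends of each list, and 9 fixed genes. Ranks were taken among tested genes with 1 symbol. Other list members named were chosen after their values were seen. The lists and the comparison were chosen with earlier results of these data known. Alternatives changed the block, scaling, filter, probe set rule, variance prior and minimum fold, or left out a series. Random blocks used statmod 1.5.0.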

Additional observations from a re-analysis of the deposited data

Results flagged for a closer look

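Among the 4 pulsed arrays, 1 array stood apart from the other 3 for 11 of the 129 named genes examined (Dixon's test). Chance gives about 1 in 20 for genes not chosen by their values, and many of these were chosen as extremes, so the count cannot be read against that rate. The array that stood apart was that of series 1 for 6 genes, of series 2 for 2 genes, of series 3 for 3 genes and of series 4 for 0.

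In series 1 the log2 signal was lowest for Serpinb2 (3.46, next 7.27), Slc35e4 (7.34, next 7.96) and Thy1 (9.17, next 10.03). In the same array it was highest for F13a1 (9.52, next 4.90), Ckmt2 (9.42, next 8.41) and Bnip3 (11.81, next 10.64). In series 2 it was lowest for Mlana (4.31, next 6.43) and highest for Nptx1 (11.19, next 8.34). In series 3 it was lowest for Ryr2 (11.47, next 11.84) and highest for Krt18 (8.27, next 6.33) and Kcne1 (7.99, next 4.21).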

How the results depend on the processing

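The count of genes past an adjusted p of 0.05 was 0 in all 13 alternatives, with a smallest adjusted p of 0.237 to 1 (limma, Benjamini-Hochberg). Without the replicate block, and with the pulsed array of series 4 added, 1044 genes were higher and 94 lower at an unadjusted p under 0.05, and with culture series as a random block 2032 were higher. Quantile normalization gave 860 higher and 555 lower, with 3177 below 0 in all 3 series. Median centring gave 814 and 633, with 2656 above and 3645 below 0 in all 3 series. Without a filter 418 were lower, among 24433 tested, and a minimum fold of 1.5 left 9 and 2. For these changes the cause was not tested, except that more genes were tested without the filter and that the minimum fold is a stricter test. Leaving out a series gave 740 (without series 2) to 1705 higher and 140 (without series 2) to 352 lower genes. Genes above 0 in every remaining series then numbered 6155 to 7517 and those below 0 3038 to 3795, since only 2 series remained. Without series 1, 16 of 129 named genes and 7 of 39 list medians changed sign, among them immediate early genes (0.18) and cell division (0.12). The same counts were 7 and 7 without the block, a setting that also brings in the unpaired pulsed array of series 4, without which the means could not differ from the paired ones. Probe sets at the lowest level of an array (1988 to 2276 per array) give only bounds there.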
